A study of Rattus norvegicus with 9 samples.

Results

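Complement genes of the rat uterus were described from the probe sets that the array's annotation assigns to 8 genes, C3, Cfb, C1qa, C1qb, C1s, C1r, C2 and Cd55. These genes were covered by 11 of the 31042 probe sets analysed. C3, C1qa, C1qb, C1s and C1r each had 1 probe set with their symbol alone, and Cd55 had a pair. Cfb and C2 had none: the 4 probe sets that named them named both, so the pair could not be told apart and is written Cfb/C2. The genes were chosen by their pathway, after earlier results of these data were known. Where a gene had several probe sets, the one used was chosen by its mean intensity over the 9 arrays, 433 against 102 for Cd55, and nothing is concluded from that choice. The chosen set stood for its gene, and the 6 members with a symbol of their own were tested among 10973 genes. All 11 probe sets passed the filter on low values.

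Total RNA of whole uterine tissue from female rats was hybridised to 9 Affymetrix arrays, 3 per group. The control group was left untreated. The model group received pregnant mare serum gonadotropin (PMSG, the labels' pregnant horse serum gonadotropin) intraperitoneally at 0.5 U per rat, and the same amount of human chorionic gonadotropin (hCG) 48 h later, to induce ovulation. The treatment group had the same injections and also electroacupuncture at Guanyuan and Sanyinjiao, in sessions of 15 min on 7 days before induction and on into it. Each group held 6 of the study's 18 rats, and whether an array held 1 rat or a pool is not given in the sources used here. P-values therefore measure the spread between arrays. Strain, age and the stage of the oestrous cycle of the untreated rats are likewise not given in the sources used here.

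Complement is a cascade of blood and tissue proteins that tags surfaces for removal and recruits leukocytes. In the classical pathway C1q, built from C1qa, C1qb and C1qc chains, binds a target and activates the proteases C1r and C1s, which cleave C4 and C2 into an enzyme that cleaves C3. In the alternative pathway factor B (Cfb), cut by factor D (Cfd), forms that enzyme with C3 itself, and Cd55, or decay-accelerating factor, breaks both enzymes apart on the cell's own membrane. C3 is a classic oestrogen-induced product of the rat uterine epithelium, and C1q is made mostly by macrophages.

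Sequences of the 250 bases before the annotated start were taken from RefSeq (build GRCr8) for C3, Cd55, C1qa, C1qb and C1r. The first 4 are shown because, of these 5 genes, C3 and Cd55 spread most between control arrays, and C1qa and C1qb followed nearly the same order over the arrays. Each reads 5′ to 3′ on the gene's own strand, here the minus strand, and ends at the base before the start: C3 at chr9:2201340-2201589, Cd55 at chr13:44438102-44438351, C1qa at chr5:154419934-154420183 and C1qb at chr5:154407828-154408077. Capitals mark every match to a searched motif.
C3: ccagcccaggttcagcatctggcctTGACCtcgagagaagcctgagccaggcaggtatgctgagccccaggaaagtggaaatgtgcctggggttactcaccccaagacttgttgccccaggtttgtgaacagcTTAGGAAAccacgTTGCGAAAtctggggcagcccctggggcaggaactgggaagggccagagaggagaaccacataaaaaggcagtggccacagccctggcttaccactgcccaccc
Cd55: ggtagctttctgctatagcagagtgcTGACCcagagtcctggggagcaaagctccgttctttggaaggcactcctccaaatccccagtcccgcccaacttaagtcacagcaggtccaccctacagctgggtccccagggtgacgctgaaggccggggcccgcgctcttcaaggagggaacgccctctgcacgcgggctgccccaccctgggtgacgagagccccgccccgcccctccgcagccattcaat
C1qa: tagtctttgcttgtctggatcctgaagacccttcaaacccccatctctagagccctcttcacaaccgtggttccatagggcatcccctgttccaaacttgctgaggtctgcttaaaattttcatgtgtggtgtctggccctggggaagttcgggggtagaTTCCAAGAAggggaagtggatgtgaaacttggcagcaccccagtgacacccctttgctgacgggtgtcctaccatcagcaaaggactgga
C1qb: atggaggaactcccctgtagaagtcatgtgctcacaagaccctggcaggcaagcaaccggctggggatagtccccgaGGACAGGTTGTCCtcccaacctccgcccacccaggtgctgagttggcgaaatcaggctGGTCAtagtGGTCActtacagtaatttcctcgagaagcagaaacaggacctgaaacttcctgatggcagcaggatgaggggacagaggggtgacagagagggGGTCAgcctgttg

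Both strands of these windows were searched for 9 motifs, and the same windows of 33469 RefSeq promoters gave the background. The full oestrogen response element, GGTCA and TGACC 3 bases apart, was in none of the 5 member windows and in 0.0239% of all promoters. Its half-site GGTCA, which 35.4% of promoters hold, was in 4 of the 5. C3 had it once at bases 225 to 221 before the start and Cd55 once at 224 to 220, both on the opposite strand, and C1qb held it at 3 places. The glucocorticoid and progesterone response element, GNACA and TGTNC 3 bases apart, was in the C1qb window, as GGACAGGTTGTCC at bases 173 to 161, and in 0.373% of promoters. C3 held the C/EBP motif TTNNGNAA at 117 to 110 and at 104 to 97, against 37.2% of promoters with a match, and C1r held it too. C1qa held the STAT motif TTCNNNGAA once, at 90 to 82, against 7.67%. The NF-kappaB motif, the interferon-stimulated response element (TTTC and its repeat after a gap of 2 bases), TGANTCA (AP-1) and TATAAA had no match in the 5 windows, and 3.54%, 3.41%, 6.34% and 12.9% of promoters held them. A full oestrogen response element contains the half-site, and the other motifs did not overlap in the member windows. These are matches of letters and were not tested for binding.

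Deposited intensities are on a linear scale, with medians of 23.5 to 23.96 per array. No detection calls were used, so the level at which a probe set shows only background is unknown. The 40th percentile of an array, 15.16 to 16.17, served as the limit for a dim value. Control arrays 41 and 42 correlated at 0.9799 over the genes tested, but control 43 correlated at 0.8864 and 0.9157 with them and at 0.9721 with model 21. The ratio of the 3′ to the 5′ probe set of Actb, a sign of RNA integrity, was highest in control 43, at 7.84 against 5.07 to 7.00 on the other arrays. That of Gapdh was highest in model 21, at 1.39, with 1.3 in control 43 and 1.1 to 1.24 on the others. Results are therefore given with and without control 43, and levels are listed in the order control 41, 42, 43, model 21, 22, 23 and treatment 31, 32, 33.

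C3, the protein on which all complement pathways converge, had intensities of 5116, 4301 and 13.2 on the control arrays, 116, 1581 and 1733 on the model arrays, and 2462, 2652 and 2999 on the treatment arrays. Control 41 and 42 were the highest arrays and control 43 the lowest, below its array's 40th percentile of 15.43, so the control group enclosed both others. Every treatment array lay above every model array, and model 21 was far below the other model arrays. With dim values raised to the 40th percentile of their array, the highest intensity was at least 332 times the lowest. The range was then at least 7.35 on the scale of log2(intensity + 16), used for all differences here, rank 1 of the 10973 genes treated alike. As listed it was 7.46, against a median range of 0.51. The spread sat in some groups only: the SD of the log2 level was 4.24 among controls, rank 1 of all genes, and 2.12 among model arrays, rank 7. Among treatment arrays it was 0.14, close to the median gene's 0.11.

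For C3 the fitted log2 difference was -0.27 (SE 1.90, limma adjusted p = 0.956) for model against control. Treatment against control gave 1.65 (adjusted p = 0.687; 95% interval -2.69 to 5.99), and treatment against model 1.92 (adjusted p = 0.63; interval -2.42 to 6.26). No C3 difference passed, and the intervals span a fall and a rise of more than 4-fold. Without control 43 the difference for model against control was -2.72 (adjusted p = 0.11), and that for treatment against control turned to -0.80 (adjusted p = 0.657). The first comparison shares its control arrays with the second.

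**Figure D1:**
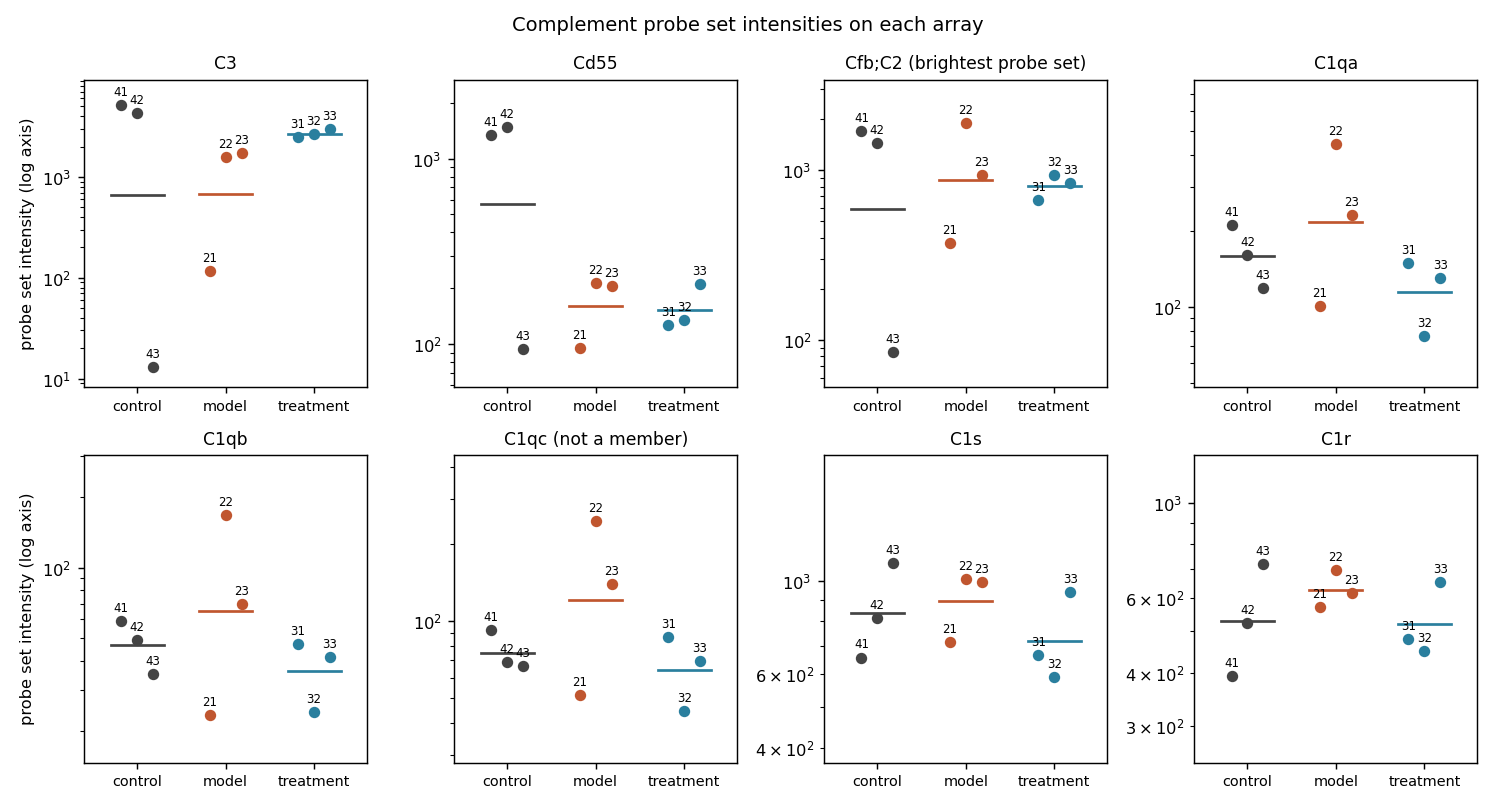
Intensity of each probe set (log axis) on the 3 control, 3 model and 3 treatment arrays, with the array number over each point and a line at the group's geometric mean. Axes differ between panels; C3 in control 43 stands at 13.2 against 5116 and 4301 in the other controls, and Cd55 is high in control 41 and 42 only.

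Cd55, which protects a cell from its own complement, had intensities of 1344, 1480 and 93.7 on the control arrays, 94.9, 213 and 205 on the model arrays, and 127, 135 and 210.4 on the treatment arrays. Control 41 and 42 stood above the other 7 arrays, which all lay between 93.7 and 213, and control 43 was the lowest of all. The dimmer probe set of the gene gave 336, 445 and 11.3 on the controls, 10.9, 26.6 and 22.2 on the model arrays, and 18.0, 20.0 and 25.4 on the treatment arrays. The same pair of controls stood apart on it, and control 43 and model 21 were below the 40th percentile of their arrays. The range of Cd55 over the arrays, 3.77, ranked 64 among all genes and its control SD of 2.14 ranked 26.

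With all 9 arrays the log2 difference of Cd55 was -1.77 (SE 0.90, adjusted p = 0.441) for model against control and -1.84 (SE 0.90, adjusted p = 0.331) for treatment against control. Neither passed, and treatment against model gave -0.07 (95% interval -2.13 to 2.0). The dimmer set gave -2.22 for model and -2.15 for treatment against control. It did not pass either (limma unadjusted p = 0.0376 and 0.0425, adjusted p = 0.384 and 0.287). Without control 43 Cd55 fell by 3.01 in the model group (SE 0.33, limma adjusted p = 0.00394) and fell by 3.07 in the treatment group (SE 0.33, adjusted p = 0.00371). The second probe set fell by 3.51 and fell by 3.44 (adjusted p = 0.000258 and 0.000302, tested among 19200 probe sets). Cd55 was thus 1 of the 6 members called lower in each of these comparisons, where 6.91% and 5.05% of all genes were called lower. Of the 13 epithelial markers tested, 10 were called lower there for model and 4 for treatment against control. That setting leaves 2 controls, whose own spread was taken to be like that of the other groups. Control 43 was also the lowest array on the brighter Cd55 set and lay closest of the controls to the other groups. The p-values without it are therefore not independent of that choice.

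The 4 Cfb/C2 probe sets are called a to d from bright to dim. Set a had intensities of 1701, 1438 and 84.4 on the controls, 372, 1893 and 942.1 on the model arrays, and 666, 942.0 and 842 on the treatment arrays. Control 43 was the lowest array, model 21 the next, and model 22 the highest. Set b gave 397, 327 and 47.6 on the controls, 77.8, 307 and 140.3 on the model arrays, and 100.3, 94.7 and 92.8 on the treatment arrays. Set c gave 334, 264 and 48.2, then 65.5, 198 and 122, then 81.0, 81.5 and 78.1, and set d gave 254, 203 and 20.0, then 27.2, 103 and 80.0, then 41.5, 50.1 and 35.2. On all 4, control 43 ranked last and model 21 next to last, and the treatment arrays held ranks 5 to 7, below model 22 and 23. Control 41 and 42 led on sets b, c and d. C2 and Cfb are neighbouring genes in the rat annotation, and factor B and C2 have matching roles in the alternative and classical pathways.

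Tested singly among 19326 probe sets, none of the 4 passed with all 9 arrays, where 0.0259% of probe sets passed for model against control and 0.419% for treatment against control. The log2 differences for model against control were 0.50 for set a, -0.31 for b, -0.46 for c and -0.70 for d, with adjusted p of 0.672 to 0.86. For treatment against control they were 0.39, -0.89, -0.94 and -1.15, with adjusted p of 0.44 to 0.88. For treatment against model they were -0.11, -0.59, -0.48 and -0.45, with adjusted p of 0.679 to 0.965. Without control 43 all 8 differences from control were negative, and 3 passed. Set d fell by 1.62 in the model group (limma adjusted p = 0.0321) and fell by 2.07 in the treatment group (adjusted p = 0.0201), and set c fell by 1.70 in the treatment group (adjusted p = 0.0274). In that setting 6.37% and 4.31% of all probe sets were called lower. Control 43 was the lowest array on all 4 sets, so these p-values are not independent of leaving it out. Set a did not pass, at -0.83 and -0.94 (adjusted p = 0.349 and 0.348), so the 4 probe sets of the pair did not all give the same call.

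**Figure D2:**
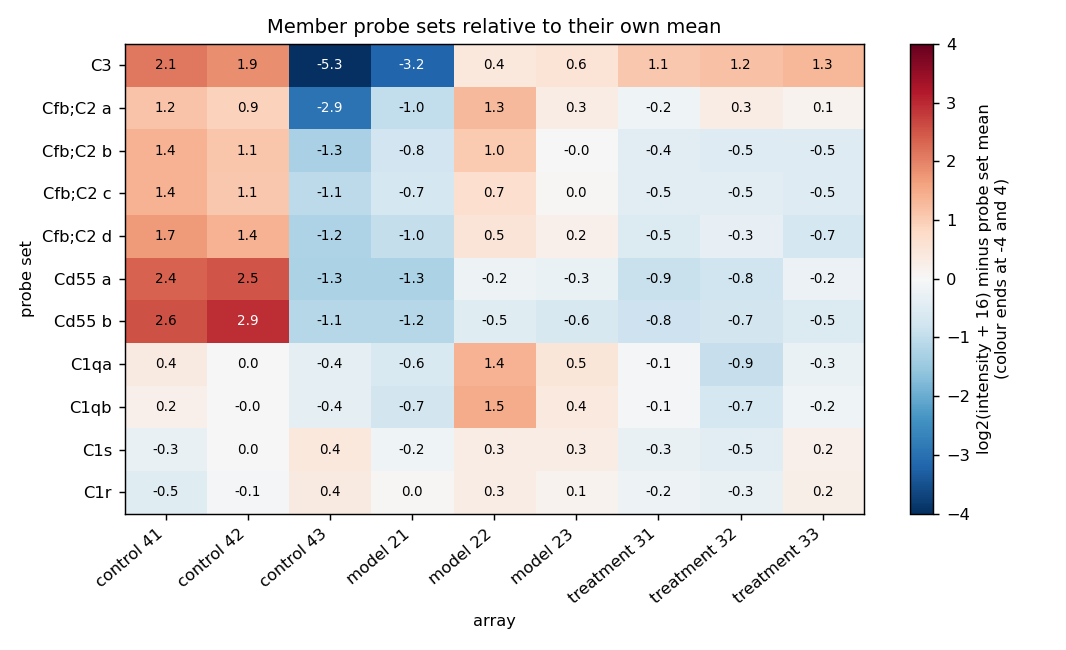
Level of each of the 11 member probe sets on each array, as log2(intensity + 16) minus the probe set's mean over the 9 arrays; blue is below and red above the mean, and the letters a to d order the probe sets of a gene from bright to dim. C3, Cfb/C2 and Cd55 are lowest in control 43 or model 21, C1qa and C1qb are highest in model 22, and C1s and C1r stay within 0.89 and 0.84 of range.

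C1qa, a chain of the recognition molecule C1q, had intensities of 212, 161 and 119 on the controls, 100.4, 443 and 231 on the model arrays, and 149.6, 76.9 and 129.9 on the treatment arrays. C1qb gave 58.8, 48.9 and 35.0, then 23.3, 168 and 69.7, then 47.0, 24.1 and 41.5. For both, model 22 was highest and model 23 next, and model 21 and treatment 32 were the lowest arrays, so the groups overlapped and the model group held arrays near both ends. Control 43, so far from the other controls for C3, was only the third lowest array here. The highest intensity was 5.76 times the lowest for C1qa and 7.21 times for C1qb.

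The model SD of C1qb was 1.11, rank 69 of all genes, against 0.28 among controls and 0.34 among treatment arrays. For treatment against model the log2 difference was -0.85 for C1qa (SE 0.46, adjusted p = 0.408) and -0.70 for C1qb (SE 0.48, adjusted p = 0.497). Against control the model arrays gave 0.42 and 0.44 (adjusted p = 0.687 and 0.688), and the treatment arrays -0.43 and -0.26 (adjusted p = 0.669 and 0.822). None passed, and without model 22 the model differences were -0.05 and -0.11. C1qc, the chain not among the 8 genes, had the same high arrays, 246 in model 22 and 139 in model 23. It was lowest in treatment 32, at 44.6, as C1qa was, while C1qb was lowest in model 21. The 3 chains are consecutive genes in the annotation, in the order C1qb, C1qc, C1qa.

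C1s, the protease that cleaves C4 and C2, had intensities of 656, 816 and 1104 on the controls, 713, 1011 and 992 on the model arrays, and 665, 589 and 941 on the treatment arrays. C1r, the protease that activates C1s and lies next to it in the genome, gave 394, 524 and 718, then 571, 696 and 616, then 479, 451 and 652. Control 43 was the highest array for both, the reverse of its place for C3, Cd55 and Cfb/C2, and the groups overlapped. Both genes varied less than the other members but more than the median gene. Their range over the 9 arrays was 0.89 for C1s and 0.84 for C1r, ranks 2469 and 2700 of 10973, against a median of 0.51. The log2 differences for model against control were 0.09 for C1s (95% interval -0.46 to 0.64) and 0.23 for C1r (-0.27 to 0.74). For treatment against model they were -0.31 for C1s (-0.86 to 0.24) and -0.26 for C1r (-0.76 to 0.25), with adjusted p of 0.542 and 0.575. Treatment against control gave -0.22 and -0.02 (adjusted p = 0.669 and 0.964), and no difference of either gene passed. The summed intensity of the 10 stromal markers was highest in control 43, at 14047, and lowest in control 41 and treatment 32, at 7488 and 7719. Of these markers 3 were highest in control 43 and 4 in model 22, and control 41 and treatment 32 were each lowest for 4. Control 43 was highest and treatment 32 lowest for 6 of the 7 endothelial markers tested of 8. The part of either in the C1s and C1r values was not tested.

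Over the members as a list, 0 of 6 passed at an adjusted p under 0.05 in limma in any of the 3 comparisons, and 0 had an unadjusted p under 0.05. That count rests on the probe set chosen for Cd55: its dimmer set had an unadjusted p under 0.05 in each comparison with control. Of all 10973 genes, 0.0273% passed for model against control, 0.51% for treatment against control and 0.0% for treatment against model. The median log2 difference of the 6 was 0.16 against 0.02 for all genes in the first comparison, -0.24 against -0.04 in the second and -0.29 against -0.05 in the third. Of all genes, 12.5%, 17.4% and 14.7% had an unadjusted p under 0.05 in the 3 comparisons. No member probe set had non-overlapping groups against the controls, where 14.5% (model) and 23.3% (treatment) of genes did. Between treatment and model only C3 of the 11 member probe sets did, with treatment higher, as did 8.11% of genes in that direction and 28.1% in either.

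**Figure D3:**
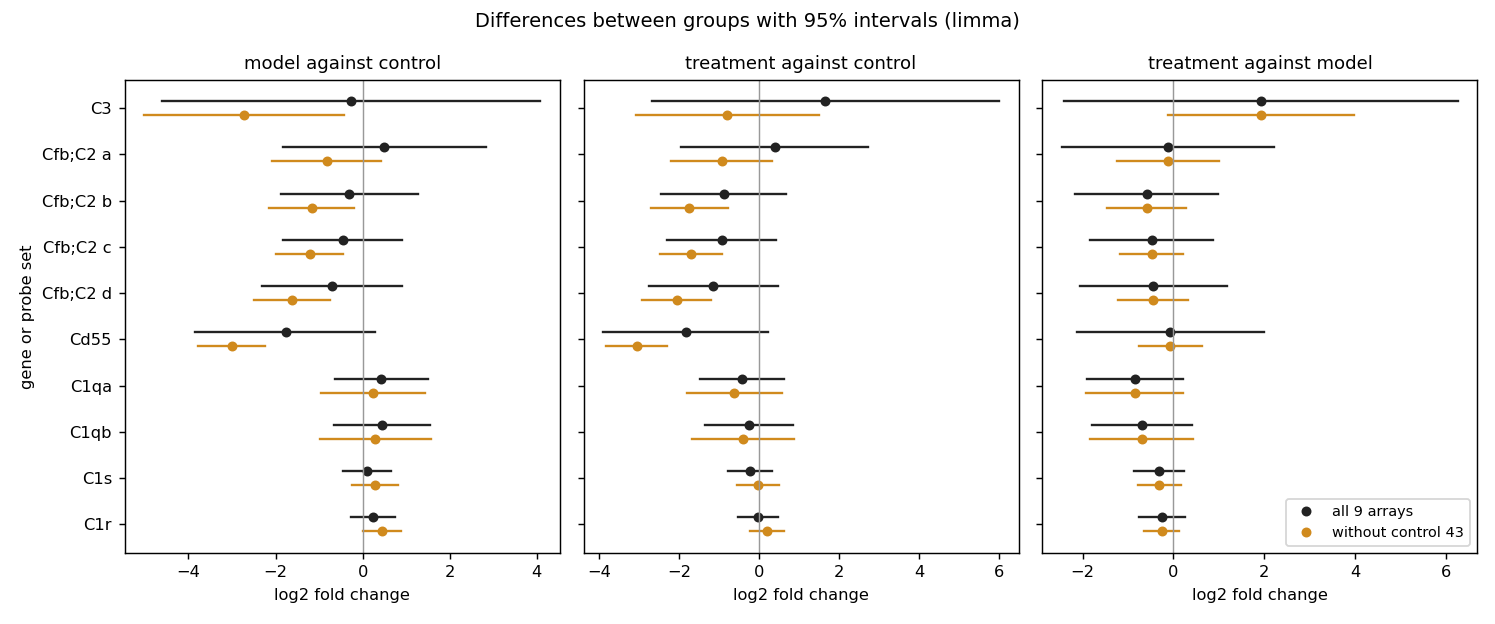
Log2 difference between groups (point) with its 95% interval (line) from limma for the 6 members tested as genes and the 4 Cfb/C2 probe sets, a to d from bright to dim, with all 9 arrays (black) and without control 43 (orange). Cd55 moves from -1.77 to -3.01 for model against control, and C3 for treatment against control goes from 1.65 to -0.80.

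Leaving out model 21 as well as control 43 was tried after seeing the data, and 2 of 6 members were then called lower against control. C3 was at -1.49 in the model group (limma adjusted p = 0.00481) and -0.80 in the treatment group (adjusted p = 0.014), and Cd55 at -2.67 and -3.07 (adjusted p = 0.00345 and 0.00123). Of all genes, 4.47% and 6.25% were called lower there. Control 43 and model 21 were also the lowest arrays for C3 and for Cd55, so the p-values of both genes in that setting are not independent of the choice of arrays. Treatment against model called no gene in either setting, and C3 stood at 0.70 (adjusted p = 0.192) in the 7 arrays.

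The rest of the complement system was followed through 40 further genes, of which 20 could be tested and 0 passed in any comparison with all 9 arrays. An unadjusted p under 0.05 was reached by 2, 0 and 5 of the 20, against 12.5%, 17.4% and 14.7% of all genes. Their median log2 differences were 0.11 for model against control, -0.12 for treatment against control and -0.26 for treatment against model. Tested were 6 of 11 genes of the classical and lectin pathways, 2 of 2 of the alternative pathway, 2 of 7 of the terminal pathway, 6 of 11 regulators and 4 of 9 receptors. Those with the smallest p came from several branches. C4bpa, a chain of the C4b-binding protein, stood at 0.67 for model against control (adjusted p = 0.358), and Cr1l, a membrane regulator, at -0.29 (adjusted p = 0.457). Cfp, or properdin, which stabilises the alternative enzyme, stood at -0.57 for model and -0.66 for treatment against control (adjusted p = 0.465 and 0.317). For treatment against control the lectins Mbl1 and Mbl2 stood at 0.13 and 0.15 (adjusted p = 0.333 and 0.343). Cd93, a surface receptor once named for C1q binding, was at -0.68 (adjusted p = 0.321) and, for treatment against model, at -0.84 (adjusted p = 0.319). Mbl2 was at 0.23 in that last comparison (adjusted p = 0.285) and Masp2, a protease of the lectin pathway, at -0.34 (adjusted p = 0.319). Some of these genes lay near the limit for a dim value. C4bpa, at log2 levels of 4.61 to 4.68 on the controls, was below it there. It was also below in model 21, treatment 32 and treatment 33, at 4.96, 4.73 and 4.9. C4bpa passed the filter only through model 22, model 23 and treatment 31, so its difference from control is not independent of the filter. Mbl1 ran from 5.18 to 5.39, Mbl2 from 4.89 to 5.32 and Masp2 from 4.97 to 5.56.

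Cfd, the protease that cuts factor B, had log2 levels of 6.07, 5.75 and 5.77 on the controls, 6.67, 6.83 and 6.72 on the model arrays, and 6.06, 5.60 and 6.34 on the treatment arrays. The model arrays lay above all others, as they did above the controls for 7.8% of genes, and 19.9% of genes had all treatment arrays below all model arrays. The difference was 0.88 against control (SE 0.18, adjusted p = 0.163) and -0.74 for treatment against model (SE 0.18, adjusted p = 0.285). Without control 43 Cfd rose by 0.83 in the model group (SE 0.20, limma adjusted p = 0.038), the only one of the 20 to pass, where 5.71% of genes were called higher. Cfd is a known product of fat cells, and the summed intensity of 4 of 7 adipocyte markers was 585 to 757 on the model arrays, 497 to 560 on the controls and 353 to 396 on the treatment arrays. Among them Adipoq was highest in control 41 and 42, at 8.88 and 8.62, and Lpl in model 22, at 9.18. The part of fat tissue in the Cfd values was not tested.

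The genes whose 9 levels lay closest to those of C3, each centred on its mean and divided by its SD, were Muc4, Serpinb1a, Kap, Slc7a8, Tnfaip6 and Upk3bl1. Their root mean square differences from C3 were 0.239 to 0.285, where the median gene had 1.379. Muc4, a membrane mucin, had log2 levels of 9.39, 9.44 and 4.96 on the controls, 5.24, 7.82 and 8.18 on the model arrays, and 7.93, 8.50 and 8.30 on the treatment arrays. Kap kept a high level on every array, 10.92 to 12.36, and Slc7a8 spanned only 5.84 to 6.44, so likeness in shape did not mean a like size of difference. Lcn2, a secreted iron-carrier protein, ranked 35, Krt8 59 and the complement regulator Cfi, which degrades C3b, 107. Krt8, Krt19 and Epcam were the only markers of the epithelial list that were ranked, and they did not lie equally close. Beside Krt8 at 59, Krt19 ranked 673 and Epcam 4416, with a difference of 1.263 for Epcam. Cd55 ranked 1029, C1qb 3022 and C1r 8822.

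For C1qb the 6 closest genes were C1qa, Ptprc, Sash3, Coro1a, C1qc and Cd53, with differences of 0.177 to 0.225 against a median of 1.287. Ptprc, which encodes the leukocyte antigen CD45, had log2 levels of 5.78, 5.37 and 5.09 on the controls, 4.82, 6.81 and 5.55 on the model arrays, and 5.34, 4.65 and 5.34 on the treatment arrays. Model 22 was the highest array for it as for C1qb. The macrophage marker Adgre1 ranked 7 and Csf1r 38. C1s ranked 1601, C3 2704 and C1r 2951, so the genes of the C1 complex did not share 1 pattern. These likenesses rest on 9 arrays and carry no test.

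**Figure D4:**
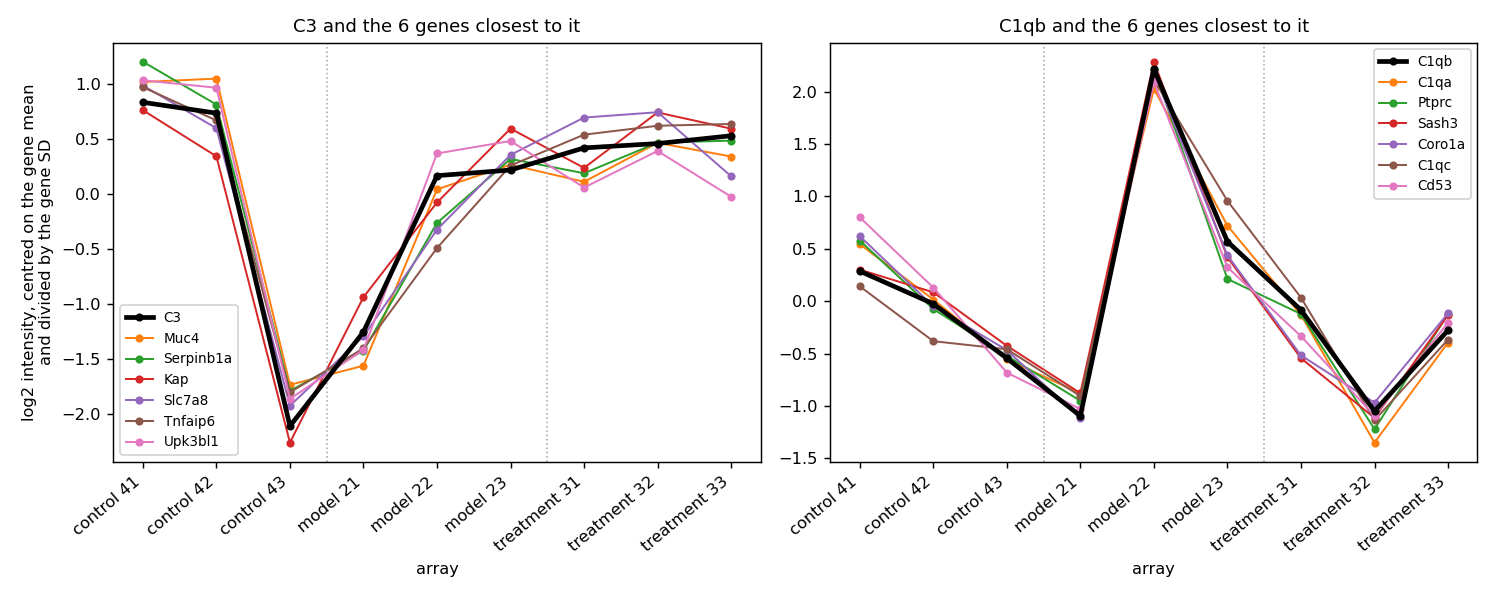
Log2 levels on the 9 arrays, centred on each gene's mean and divided by its SD, for C3 (left, black) and C1qb (right, black) with the 6 genes closest to each; lines only join a gene's points, and dotted lines part the groups. The genes beside C3 are low in control 43 and model 21, and those beside C1qb peak in model 22.

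Of 14 epithelial markers 13 could be tested, and their summed intensity was 5025 to 20157 on the controls, 3854 to 5098 on the model arrays and 4372 to 6612 on the treatment arrays. The sum was highest in control 41 and 42, as C3 and Cd55 were, at 20157 and 14827. Among the other arrays the order of the sum differed from that of C3, with 5025 in control 43, 4063 in model 22 and 4372 in treatment 31. Single markers differed there. Krt18 had log2 levels of 7.42 in control 43, 7.94 in model 21, 8.6 and 9.21 in model 22 and 23, and 9.02 to 9.62 on the treatment arrays. Prom1 went the other way, with 9.72 in control 43 and 7.93 to 8.98 on the model and treatment arrays. Of the 13, 11 were highest in control 41, among them Krt19 with log2 levels of 12.01, 11.58 and 7.48 on the controls, 7.23, 8.57 and 8.72 on the model arrays, and 8.07, 9.29 and 8.71 on the treatment arrays. Epcam, a defining epithelial marker, was high on every array, at 9.75 to 10.69. It too was highest in control 41 and 42, while Cldn3 and Cldn4 were highest in control 43. The 10 smooth muscle markers, of the muscle wall, were detected above the dim limit in all groups, with summed intensities of 13899 to 26618 and the lowest sum in control 41. The part of epithelial content in the values of C3, Cd55 and Cfb/C2 was not tested. In whole tissue, fewer cells of a type and less RNA per cell cannot be told apart.

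Of 12 macrophage markers 11 could be tested, with summed intensities of 1692 to 4448 on the controls, 1262 to 4844 on the model arrays and 1444 to 1998 on the treatment arrays. Model 22, the highest array for the C1q chains, was highest for 6 of the 11, and control 41 for 4. Treatment 32 was lowest for 7 and model 21 for 3, and these were the 2 lowest arrays for C1qa and C1qb. Adgre1 had log2 levels of 6.62 in model 22 and 4.47 in treatment 32, while Cd14 was highest in treatment 32, at 8.52. Of 10 lymphocyte markers 5 could be tested and 4 were highest in model 22, as were the 2 tested of 8 neutrophil markers. The part of leukocyte content in the C1qa and C1qb values was not tested.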

How the data were processed

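Values are the probe set intensities deposited by the authors, on a linear scale. Per the submitters' processing notes MAS5 was used, with settings not given in the sources used here. Symbols came from the platform annotation, 1 symbol for 20826 of 31042 probe sets, updated through RefSeq. Log2(intensity + 16) was used, which understates changes of dim genes. Probe sets at or above the 40th percentile of their array in at least 3 arrays were kept. Differences came from 1 fit over all 9 arrays with limma 3.58.1 (R 4.3.3, variance trend, two-sided), with Benjamini-Hochberg adjustment over all genes and a threshold of 0.05. Each probe set was also tested singly, an alternative added after the data were seen.

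The members, lists and motifs were chosen with earlier results of these data known. All members were named, with the further complement genes that passed or had the 4 smallest p in a comparison and the 6 genes nearest to C3 and C1qb.

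On simulated data with known changes, 4-fold changes in model against control were recovered for 100% of 50 genes and 1.5-fold changes for 50%, with 14 false calls among 10973 genes. For treatment against model 1.5-fold changes were recovered for 46% and 2-fold changes for 74%, with 8 false calls. The changed genes were drawn at random, with noise at each gene's own SD. The rates thus do not describe genes as variable as C3 and Cd55, whose SE was 1.9 and 0.9 for model against control. Alternatives covered the value added before log2, scaling, filter, variance trend, choice of probe sets, arrays in the fit and a replicate block. Array scanner files were not used here. Figures were drawn with matplotlib 3.10.9.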

Additional observations from a re-analysis of the deposited data

How the results depend on the processing

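With 3 arrays per group and no detection calls, small differences and dim levels could not be resolved. No member passed under another added value, scaling, filter, variance model, choice of probe sets or the compared arrays alone. Leaving out 1 array gave 0 to 1 members passing for model and for treatment against control, 0 to 1 further complement genes for model against control, and 0 for treatment against model. The 1 was Cd55 or Cfd, and came without control 43. Over all genes, 0 to 1379 passed for model against control (3 with all arrays; 1379 without control 43, 0 without control 41, control 42, model 21 or model 23, and 1 without model 22 or any treatment array). For treatment against control 0 to 716 passed (56 with all arrays): 716 when control 43 was left out, 95 for model 23 and 17 for model 22. The counts were 11 for treatment 32, 2 for 31 and 0 for 33, and 5 and 4 for control 42 and 41. For treatment against model 0 to 3 passed, the 3 without model 23. With no filter on low values, or the compared arrays alone, 1 passed for model against control.

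The labels' array numbers share a last digit across groups. Deviations from the group mean correlated at -0.411 to 0.312 between arrays of the same digit and at -0.39 to 0.451 between arrays of different digits. A group's deviations cancel out, so these values cannot decide whether the arrays were paired. With the digit as a replicate block, 27 genes passed for treatment against control and no member's call changed.

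The 7 arrays other than control 43 and model 21, an alternative added after seeing the data, gave 2 members passing in each comparison with control and 1 further complement gene, C5ar1, for treatment against control (adjusted p = 0.0442). Over all genes 817 passed for model and 901 for treatment against control. The sign turned there for Cfb/C2 set a (-0.22 for model, -0.94 for treatment against control), for C3 (-0.80) and C1r (0.19) in treatment against control, and for the dimmer Cd55 set (-0.13) in treatment against model.

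Other signs that turned were of small differences that did not pass, and the cause was not tested. C3 in model against control was 0.013 with 1 added before log2. C1r in treatment against control was 0.038 after quantile normalization. Cd55 in treatment against model was 0.033 after quantile normalization and 0.0012 as the mean of its probe sets.

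Leaving out 1 array turned the sign in these ranges. For model against control they were -2.72 to 1.01 for C3, -0.054 to 0.94 for C1qa, -0.11 to 1.0 for C1qb and -0.084 to 0.28 for C1s. The Cfb/C2 sets gave -0.83 to 1.22 for set a, -1.16 to 0.19 for b and -1.22 to 0.0016 for c. For treatment against control they were -0.80 to 2.93 for C3, -0.23 to 0.19 for C1r and -0.94 to 1.11 for Cfb/C2 set a. For treatment against model they were -0.41 to 0.12 for Cd55, -0.13 to 0.21 for its dimmer set and -0.71 to 0.44 for Cfb/C2 set a. Of the 872 values of a single gene or probe set under an alternative, 821 kept direction and call, 17 came to pass and 34 turned sign.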

Other observations

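Further genes known to respond to oestrogen in the uterus differed in their order over the arrays. Of 10 listed, 7 were tested and 0 passed in limma in any comparison with all arrays, with 0 at an unadjusted p under 0.05, against 12.5%, 17.4% and 14.7% of all genes. Lcn2 had log2 levels of 9.82, 9.17 and 4.65 on the controls, 6.38, 10.81 and 10.32 on the model arrays, and 9.51, 11.08 and 10.36 on the treatment arrays. Like C3 it was lowest in control 43 and next lowest in model 21, but its highest array was treatment 32. Igf1, a growth factor of the stroma, went the other way, with 10.24 in control 43 against 8.12 and 8.51 in the other controls. Pgr, the progesterone receptor, was highest in control 41, at 6.96, and Greb1 lowest in control 43, at 7.43.

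Of 14 acute-phase and NF-kappaB genes 9 were tested and 0 passed with all arrays (0, 2 and 0 with an unadjusted p under 0.05, against 12.5%, 17.4% and 14.7% of all genes). Il1b, the cytokine interleukin 1 beta, was highest in model 22, at 6.98, as the C1q chains were, and ran from 5.15 to 6.28 on the other arrays.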
